A study of Rattus norvegicus with 12 samples.

Results

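The genes described here lie in a short interval of rat chromosome 14 that its working name calls the Cxcl9, Cxcl10 and Cxcl11 chemokine cluster. Members were all genes of the count table on chromosome 14 whose lowest exon start lay between 17190000 and 17235000 and that had at least 10 counts summed over the 12 libraries. The rule found 3 genes among 32883 in the table, and 0 genes of the interval fell under the count minimum. The member with the fewest counts had 214, and the nearest tested genes outside the interval had their lowest exon starts at 17143040 and 17247362. The interval was first picked because 3 neighbouring genes were lower after the NRF2 siRNA in endothelial cells, so the members were in effect selected on the PAEC values of siNRF2 against siControl, which are given as a description without a test.

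RNA was sequenced from primary cells of wild-type rat lung, cultured as pulmonary artery smooth muscle cells (PASMC, the contractile cells of the vessel wall) or pulmonary artery endothelial cells (PAEC, the cells that line the vessel). The 4 groups were PASMC with an siRNA against NRF2 (siNRF2), PASMC with a control siRNA (siControl), PAEC with siNRF2 and PAEC with siControl, with 3 libraries in each. NRF2 is a transcription factor known for turning on antioxidant genes, and an siRNA lowers the mRNA it matches. The design text calls the libraries biological replicates, but the sources used here name no animals or cultures, so p-values measure the spread between these libraries. Libraries held 27008812 to 34317763 gene counts.

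Columns of the count table have short codes in place of titles, and they were assigned to groups from the letters of these codes. No label gives this reading, and each direction stated here rests on it. Because the cell type field says PASMC even for the endothelial samples, the sample titles were used in its place. The table carries no gene symbols, so the siRNA target and the defining markers of the 2 cell types were not analysed here. In bulk RNA, fewer cells of a type and less RNA per cell cannot be told apart.

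CXCL9, CXCL10 and CXCL11 are small secreted chemokines that share the receptor CXCR3, which is carried mainly by activated T cells and natural killer cells. Interferon gamma induces all of them in many cell types, and CXCL10 also responds to type I interferons and to NF-kB. In vessel walls, smooth muscle and endothelial cells are among the cells known to make these ligands under inflammatory stimuli.

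The middle gene, ENSRNOG00000022256 (17210733 to 17212930, plus strand), is the position that the rule gives for Cxcl10. Its span of 2198 bases was that of 1 of the 1484 genes that RefSeq lists on chromosome 14 (assembly GRCr8), and that gene was Cxcl10. RefSeq places Cxcl11 directly before Cxcl10 and Cxcl9 directly after it. The gene before it in the count table, ENSRNOG00000022298 (17195014 to 17198291, plus strand), is therefore called Cxcl11 here, and the one after it, ENSRNOG00000022242 (17228856 to 17234712, plus strand), Cxcl9. The distances between the genes were 12441 and 15925 bases in the count table, against 12562 and 15902 bases in RefSeq. The spans of Cxcl11 (3278 bases, against 2776 in RefSeq) and Cxcl9 (5857 bases, against 4912) differed, so both names are an inference from position and not from an identifier. Gene coordinates follow the count table, and the sources used here do not state its genome build.

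Each of the genes had 4 merged exons, and the second exon was 127 bases long in all 3. The exons summed to 1556 bases in Cxcl11, 1134 bases in Cxcl10 and 1499 bases in Cxcl9. One other gene of the table, ENSRNOG00000002256 on the minus strand (17143040 to 17225389, 11 merged exons), spanned Cxcl11 and Cxcl10, and one of its exons lay between Cxcl10 and Cxcl9. It shared 0 exon bases with either of the genes it spanned.

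**Figure D1:**
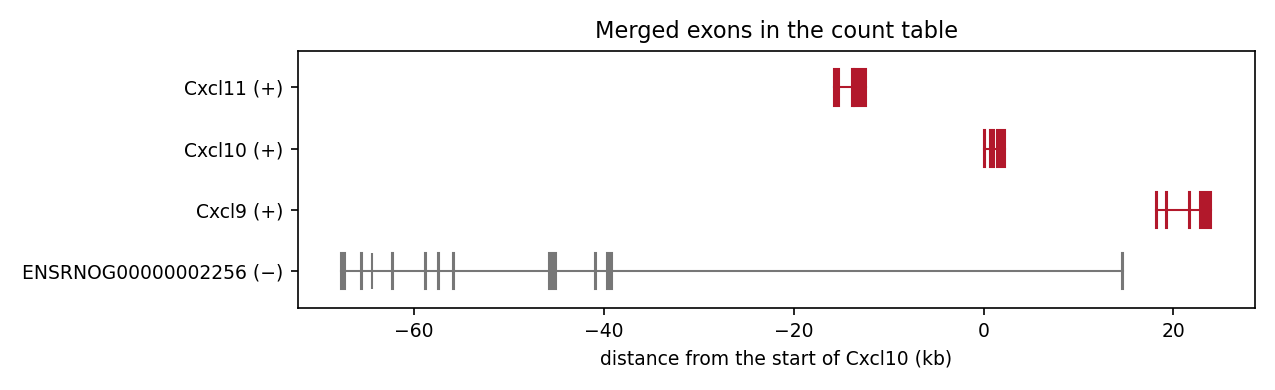
Merged exons (boxes) of the 3 chemokine genes and of the minus-strand gene that spans part of the interval, by distance from the start of Cxcl10 in kb. The gene on the minus strand has 11 merged exons, none of which overlaps an exon of Cxcl11 or Cxcl10.

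The 250 bases before each RefSeq gene start are shown for comparison between the 3 genes (RefSeq, build GRCr8, plus strand). They lie at chr14:15973478-15973727 for Cxcl11, chr14:15988816-15989065 for Cxcl10 and chr14:16006916-16007165 for Cxcl9, on an assembly that the coordinates of the count table do not follow. Capitals mark matches to the interferon-stimulated response element core, the kappaB consensus bound by NF-kB, and the AP-1 site.
Cxcl11: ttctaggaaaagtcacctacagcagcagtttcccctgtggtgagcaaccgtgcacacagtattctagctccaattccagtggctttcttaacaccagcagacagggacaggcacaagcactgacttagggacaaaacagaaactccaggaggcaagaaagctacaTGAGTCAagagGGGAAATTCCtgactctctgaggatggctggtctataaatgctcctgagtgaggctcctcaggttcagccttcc
Cxcl10: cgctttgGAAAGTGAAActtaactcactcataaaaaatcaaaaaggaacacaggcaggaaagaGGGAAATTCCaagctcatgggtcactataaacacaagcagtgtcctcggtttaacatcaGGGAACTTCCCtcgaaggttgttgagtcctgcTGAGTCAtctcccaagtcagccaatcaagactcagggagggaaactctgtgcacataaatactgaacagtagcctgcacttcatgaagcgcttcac
Cxcl9: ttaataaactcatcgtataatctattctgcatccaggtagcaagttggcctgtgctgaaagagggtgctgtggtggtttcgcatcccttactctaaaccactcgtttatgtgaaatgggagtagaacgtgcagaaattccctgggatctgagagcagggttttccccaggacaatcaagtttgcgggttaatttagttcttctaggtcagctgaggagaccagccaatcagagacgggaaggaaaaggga

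All motifs were searched on both strands of these windows and of 33465 RefSeq promoter windows of the same length. The interferon-stimulated response element core, searched as GAAA, any 2 bases and GAAA, had 1 match before Cxcl10 and 0 before Cxcl11 or Cxcl9, and 3.41% of all windows held one. The kappaB consensus had 3 matches before Cxcl10, of which a plus-strand and a minus-strand match share bases, 1 before Cxcl11 and 0 before Cxcl9, against 6.33% of all windows with a match. The AP-1 site (TGANTCA) matched once before Cxcl10 and once before Cxcl11, against 6.34% of all windows. The antioxidant response element core that NRF2 binds, searched as TGACNNNGC, had 1 match before Cxcl10, which shares its bases with the AP-1 match there, and 10.1% of all windows held one. The gamma-activated site (TTCNNNGAA) matched once, before Cxcl11, against 7.67% of windows. The letters of the TATA box (TATAAA) matched before Cxcl11 and Cxcl10, against 12.9%. From the gene start, the match lay at -41 to -36 in Cxcl11 and farther off, at -162 to -157, in Cxcl10. A match is a description of the letters and not a site shown to be bound, and any link to the levels of the genes was not tested.

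The levels of the genes were compared first. Cxcl10 was by far the most abundant of the genes in each library, and it stood among the highest genes of the smooth muscle transcriptome. By mean CPM per kb (CPM are counts scaled to a common library size, here with TMM factors, and were divided by exon length) it ranked 36 of 14584 tested genes in PASMC siNRF2 and 28 in PASMC siControl. In PAEC it ranked 4146 with siNRF2 and 1233 with siControl. Cxcl10 took 0.126 ± 0.0114% of all counts in PASMC siNRF2 and 0.154 ± 0.00219% in PASMC siControl (mean ± SD, n = 3 each).

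Per kb, Cxcl10 averaged 966 ± 82.9 in PASMC siNRF2, 1153 ± 32.2 in PASMC siControl, 19.0 ± 0.786 in PAEC siNRF2 and 68.4 ± 10.2 in PAEC siControl (CPM per kb, mean ± SD, n = 3). Cxcl11 averaged 10.8 ± 2.39, 11.8 ± 1.97, 0.420 ± 0.240 and 1.92 ± 0.221 CPM per kb in the same 4 groups. Cxcl9 averaged 0.420 ± 0.213, 0.293 ± 0.115, 0.0911 ± 0.137 and 0.702 ± 0.0609 CPM per kb. Cxcl10 thus made up 96.3 to 99.0% of the genes' summed level per kb in the group means.

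The balance between the members was then described as ratios. Per kb, the level of Cxcl10 over that of Cxcl11 was 37.6, 31.5 and 125 in PAEC siNRF2, where the last value comes from replicate 3, with 7 counts of Cxcl11. In PAEC siControl the ratio was 30.5 to 40.5. All PASMC libraries were above the PAEC siControl libraries, at 77.4 to 99.2 in PASMC siNRF2 and 87.3 to 121 in PASMC siControl. The Cxcl10 level over that of Cxcl9 was 724 and 78.8 in replicates 1 and 2 of PAEC siNRF2 and could not be formed in replicate 3, with 0 counts of Cxcl9. It was 1483 to 3567 in PASMC siNRF2. Under the control siRNA it was 85.3 to 112 in PAEC, against 3039 to 6992 in PASMC. These ratios rest on few counts of Cxcl9. No test was run on these ratios.

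Cell types were then compared under the control siRNA. This contrast is not the one that chose the interval, but it uses the same PAEC siControl libraries. Picking genes that were lower in PAEC siNRF2 than in PAEC siControl favours high values in these libraries. A higher value in PAEC, as for Cxcl9 below, lies in the direction that the choice favours. Cxcl10 and Cxcl11 were lower in PAEC than in PASMC, and Cxcl9 did not pass the test. Of all genes tested 28.3% were called lower in PAEC and 27.7% higher, or 56.0% in either direction (edgeR quasi-likelihood F test, adjusted p under 0.05 by Benjamini-Hochberg), so 2 of 3 members called is a share close to that of all genes. With library totals in place of TMM, 7488 genes were called lower and 2125 higher, against 4123 and 4046, as this scaling put the median of all genes at -0.47 on the log2 scale.

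Cxcl10 had 69.0, 73.0 and 90.8 CPM in PAEC siControl, against 1309, 1343 and 1269.7 CPM in PASMC siControl. The ranges stood far apart. The log2 difference was -4.07 (SE 0.101, edgeR adjusted p = 1.6e-16), a 16.8-fold lower level in PAEC, in 3 of 3 libraries. Cxcl11 had 2.61, 3.28 and 3.08 CPM in PAEC siControl, against 14.8, 20.3 and 19.9 CPM in PASMC siControl. The groups again did not overlap, and the log2 difference was -2.62 (SE 0.267, edgeR adjusted p = 1.5e-07). Groups did not overlap, with PAEC lower, for 30.9% of all genes tested.

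Cxcl9 ran the other way in its values. It had 27, 30 and 30 counts in PAEC siControl, against 8, 20 and 20 counts in PASMC siControl, or 1.05 ± 0.0913 and 0.439 ± 0.173 CPM (mean ± SD, n = 3). The groups did not overlap, as was the case, with PAEC higher, for 29.4% of all genes tested. The log2 difference of 1.25 (SE 0.791, 95% interval -0.58 to 3.07) did not pass the test (edgeR adjusted p = 0.19). Over the 3 genes the median log2 difference was -2.62, which is the value of Cxcl11, against -0.032 over all genes tested.

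**Figure D2:**
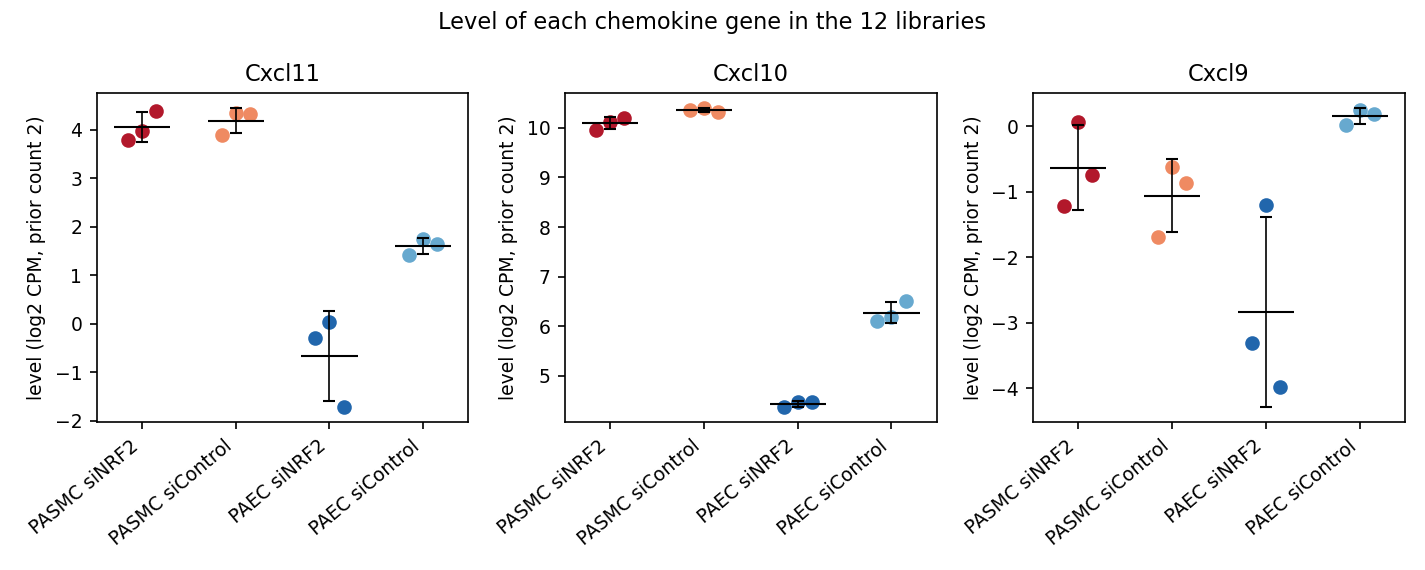
Level of each gene in each library on the log2 CPM scale (prior count 2, so that a count of 0 has a value), with a separate axis for each gene. Points are libraries, the long bar is the mean and the error bar the SD (n = 3). For Cxcl10 all 4 groups are separate, with PAEC libraries between 4.37 and 6.51 and PASMC libraries between 9.96 and 10.4. The share of all genes tested with 4 separate groups was not counted.

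In smooth muscle cells the question was what the NRF2 siRNA did to the genes. The PASMC libraries were not used to pick the interval, but the fit took its estimate of spread from all 12 libraries, PAEC included. Cxcl10 fell by a small amount, and Cxcl11 and Cxcl9 did not pass the test. Cxcl10 had 996, 1106 and 1183 CPM in PASMC siNRF2, against 1309, 1343 and 1269.7 CPM in PASMC siControl. Each siNRF2 library was below each siControl library, which was so for 22.1% of all genes tested. The log2 fold change was -0.26 (SE 0.0885, 95% interval -0.46 to -0.051, edgeR adjusted p = 0.035), or a level 1.19-fold lower.

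This call was close to the threshold. Without any 1 of 4 of the 6 PASMC libraries the change kept its sign and lost the call. The edgeR adjusted p was 0.18 without siNRF2 replicate 1, 0.075 without siNRF2 replicate 2, 0.088 without siControl replicate 1 and 0.097 without siControl replicate 2. Over all alternatives the adjusted p ran from 0.0055, in edgeR without PAEC siControl replicate 3, to 0.18. An edgeR fit of the PASMC libraries alone gave an adjusted p of 0.01. In the same comparison 14.6% of genes tested were called lower and 30.7% were called in either direction, so 1 of 3 members called is near the share of all genes.

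Cxcl11 had 13.8, 15.8 and 21.0 CPM in PASMC siNRF2, against 14.8, 20.3 and 19.9 CPM in PASMC siControl. The ranges overlapped, and the log2 fold change of -0.12 (SE 0.243, 95% interval -0.68 to 0.44) did not pass (edgeR adjusted p = 0.75). Cxcl9 had 13, 35 and 20 counts in PASMC siNRF2, against 8, 20 and 20 counts in PASMC siControl. These also overlapped, with a log2 fold change of 0.51 (SE 0.790, 95% interval -1.31 to 2.33, edgeR adjusted p = 0.68). At such counts the interval spans a fall and a rise by more than 2-fold. The median over the genes was -0.12, which is the uncalled value of Cxcl11, against 0.0048 over all genes tested.

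Measures of the libraries moved with the siRNA in PASMC. Mitochondrial genes took 1.60 ± 0.142% of counts in PASMC siNRF2 and 2.98 ± 0.329% in PASMC siControl (mean ± SD, n = 3). The slope of log2 CPM on log2 gene density, taken against the average library of the cell type, was 0.066 ± 0.031 in PASMC siNRF2 and -0.066 ± 0.026 in PASMC siControl. Taken in this way, the 2 means of a cell type are opposite by construction and stand for a single difference. The interval had 26 genes within 500 kb of each member, against a median of 20 for tested genes. With this trend removed the Cxcl10 change in PASMC was -0.33 (SE 0.0928, edgeR adjusted p = 0.011). The part of the mitochondrial share in the result was not tested.

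In endothelial cells, the contrast that led to the choice of the interval, each gene was lower with siNRF2. Cxcl10 had 20.6, 22.2 and 22.0 CPM in PAEC siNRF2, against 69.0, 73.0 and 90.8 CPM in PAEC siControl. The siNRF2 libraries lay within a narrow range, well below the lowest siControl library. The log2 fold change was -1.84 (SE 0.0972), or a level 3.59-fold lower.

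Cxcl11 had 0.751, 0.968 and 0.242 CPM in PAEC siNRF2, against 2.61, 3.28 and 3.08 CPM in PAEC siControl. The lowest of these values, in siNRF2 replicate 3, rests on 7 counts, and the siControl libraries on 74 to 87 counts. The groups did not overlap. The log2 fold change was -2.20 (SE 0.320), and without single libraries it ran from -2.61 to -1.81.

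Cxcl9 was near the limit of detection. It had 1, 10 and 0 counts in PAEC siNRF2, against 27, 30 and 30 counts in PAEC siControl, where a count of 0 allows up to 3 counts. The groups did not overlap, and the sums were 11 and 87 counts. The log2 fold change was -2.93 (SE 0.897), and its size rested on replicate 2 of PAEC siNRF2, which held 10 of the 11 counts. Without that library the fitted value was -5.59, a value that depends on how counts near 0 are handled.

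Of all genes tested, 6.29% were at least 2-fold lower in PAEC siNRF2, and 18.8% had each siNRF2 library below each siControl library. These shares stand beside 3 of 3 members, which the choice of the interval fixed, and nothing is read from them. Mitochondrial genes took 4.61 ± 0.203% of counts in PAEC siNRF2 and 3.83 ± 0.652% in PAEC siControl (mean ± SD, n = 3), and the part of this in the values was not tested. The gene density slope was -0.021 ± 0.021 in PAEC siNRF2 and 0.021 ± 0.046 in PAEC siControl (mean ± SD, n = 3), with overlapping ranges. With the gene density trend removed, Cxcl10 was at -1.83 and Cxcl11 at -2.18 in PAEC.

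The fitted difference between the siRNA effects, PAEC minus PASMC, was -1.59 (SE 0.131) for Cxcl10, -2.08 (SE 0.403) for Cxcl11 and -3.44 (SE 1.19) for Cxcl9 on the log2 scale. The Cxcl9 value rested on single libraries, at -6.09 without PAEC siNRF2 replicate 2 and -2.85 without PAEC siNRF2 replicate 3. These values contain the contrast that chose the genes and have no p here. On the CPM scale the order was different for Cxcl10. The siNRF2 mean was below the siControl mean in both cell types, with a difference of -56.0 CPM (SE 6.72) in PAEC and of -211.9 CPM (SE 58.2) in PASMC. For Cxcl11 the differences were -2.34 CPM (SE 0.293) in PAEC and -1.51 CPM (SE 2.78) in PASMC.

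Between the cell types under siNRF2, Cxcl10 was at 20.6 to 22.2 CPM in PAEC, against 996 to 1183 CPM in PASMC. The log2 difference was -5.66 (SE 0.110), given as a description. For Cxcl11 it was -4.69 (SE 0.315). Cxcl9, which had the lowest mean of the genes in each group, had 0 to 0.372 CPM in PAEC siNRF2, against 0.369 to 0.986 CPM in PASMC siNRF2, and these ranges overlapped.

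**Figure D3:**
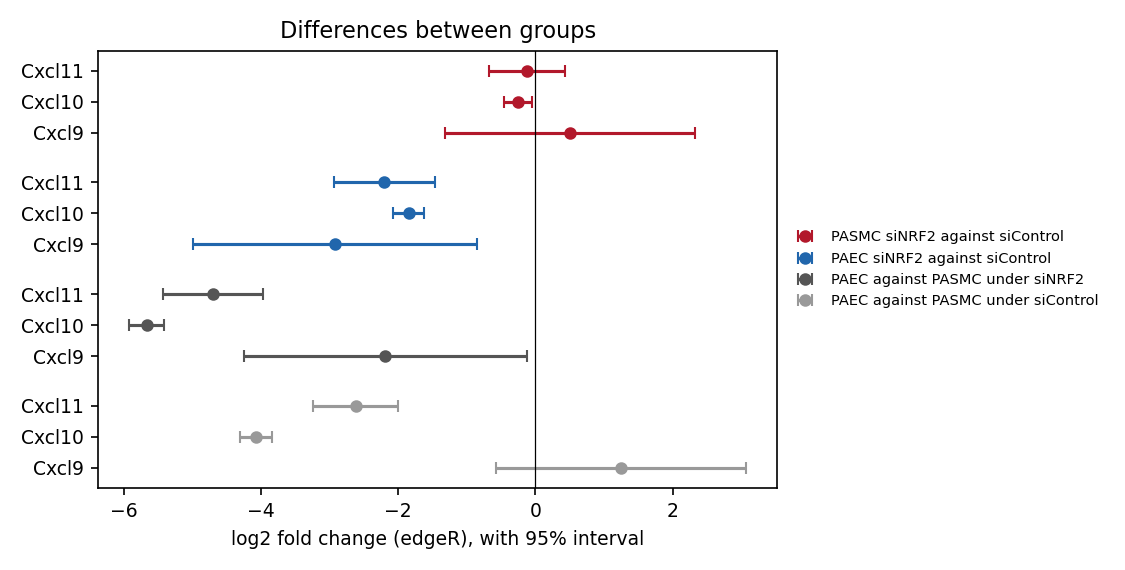
Log2 fold change of each gene in 4 comparisons (points) with the 95% interval from its standard error. In PAEC siNRF2 against siControl, the comparison by which the genes were chosen, all 3 genes lie left of 0. In PASMC siNRF2 against siControl, Cxcl10 lies slightly left of 0, and the 95% intervals of Cxcl11 and Cxcl9 include 0.

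The order of the groups differed between the genes. For Cxcl10 it ran from PASMC siControl through PASMC siNRF2 and PAEC siControl to PAEC siNRF2, with no overlap between neighbours in that order. Cxcl11 had the same order, but its PASMC groups overlapped. By mean, Cxcl9 was highest in PAEC siControl, followed by PASMC siNRF2, PASMC siControl and PAEC siNRF2, and each neighbouring pair overlapped. Of all genes tested, 22.1% had each siNRF2 library below each siControl library in PASMC, and 18.8% did in PAEC. The share with PAEC siControl wholly below PASMC siNRF2, or with all 4 groups separate, was not counted.

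The chromosomal neighbourhood was examined next, as the tested genes with a midpoint within 1 Mb of the interval. Of 31 such rows, 18 were tested. In PAEC with siNRF2 4 of these rose and 1 fell (22.2% and 5.56%), against 11.5% and 13.2% of all genes tested. Their log2 fold changes ran from -0.99 to 0.83. Of these, 0 of 18 were at least 2-fold lower, against 6.29% of all genes tested, and the lowest was just short of this cut. The interval was picked because its genes were lower in this contrast, so their distance from the neighbours in PAEC is partly built in. In PASMC 3 rose and 2 fell (16.7% and 11.1%), against 16.1% and 14.6% of all genes tested, with log2 fold changes from -0.69 to 1.55. The median of the 18 was 0.15 in PAEC and -0.072 in PASMC.

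The 1 neighbour that fell in PAEC was the minus-strand gene ENSRNOG00000002256, which spans Cxcl11 and Cxcl10. It averaged 3.37 ± 0.687 CPM in PAEC siNRF2 and 6.68 ± 1.68 CPM in PAEC siControl (mean ± SD, n = 3), a log2 fold change of -0.99 (SE 0.324, edgeR adjusted p = 0.032). In PASMC it averaged 1.14 ± 0.396 CPM with siNRF2 and 1.33 ± 0.402 CPM with siControl (edgeR adjusted p = 0.69). Under siControl this gene was higher in PAEC than in PASMC (log2 difference 2.33, SE 0.340, edgeR adjusted p = 1e-05), while Cxcl10 and Cxcl11 were lower. The library kit keeps strand, but no source used here tells if reads were counted by strand. Whether reads of the chemokine genes entered the counts of this gene was not tested. The next tested gene after the interval, at 17247362 to 17274623, averaged 11.4 ± 1.19 CPM in PAEC siNRF2 and 8.66 ± 1.59 CPM in PAEC siControl (log2 fold change 0.40, SE 0.151, edgeR adjusted p = 0.062).

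**Figure D4:**
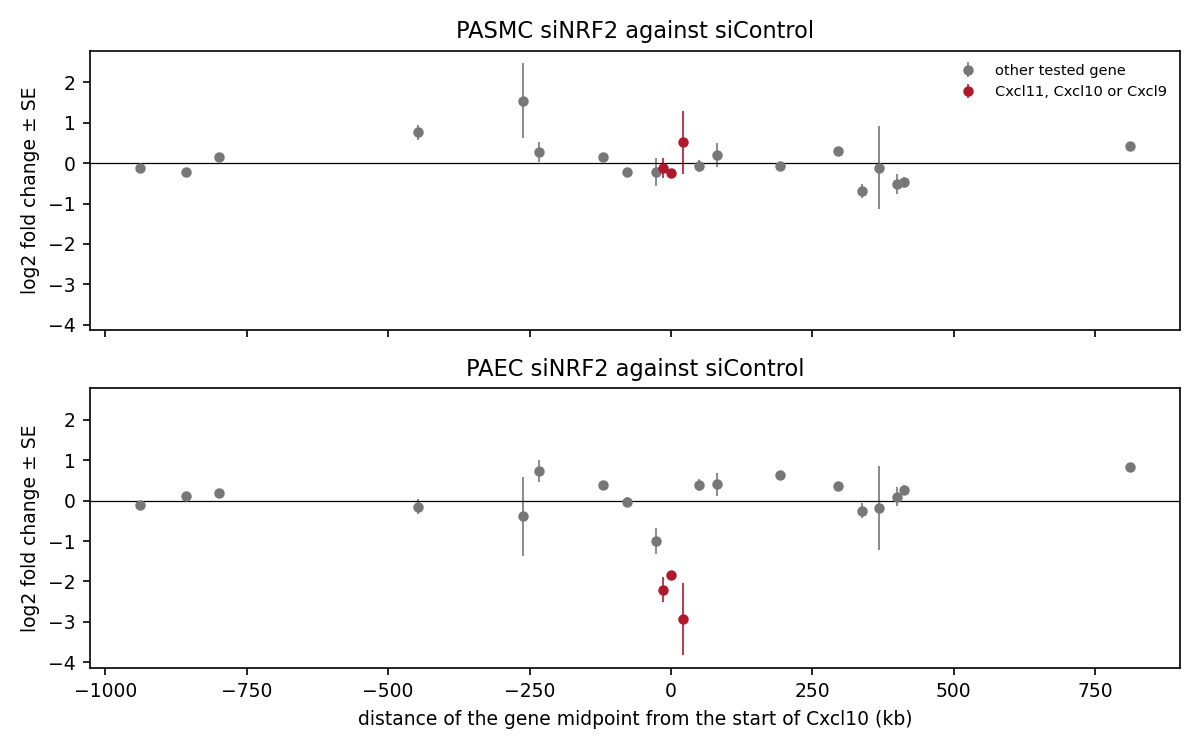
Log2 fold change with its standard error (bars) of each tested gene by the distance of its midpoint from the start of Cxcl10, in PASMC (top) and PAEC (bottom). The 3 chemokine genes, in red, are the lowest points in PAEC, where the 18 neighbours lie between -0.99 and 0.83. The interval was picked for its lower values in PAEC, so this gap is partly built in.

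Finally, the genes most like Cxcl10 were found by the root-mean-square difference in log2 CPM over the 12 libraries, with each gene centred on its own mean. The closest was a gene on chromosome 11 (77815181 to 77830416, plus strand), at a difference of 0.21. It averaged 954 ± 62.1 CPM in PASMC siNRF2, 1486 ± 219 CPM in PASMC siControl, 25.6 ± 2.71 CPM in PAEC siNRF2 and 72.6 ± 15.2 CPM in PAEC siControl. The next were on chromosome 4 (51822153 to 51844331, difference 0.30), chromosome 1 (252906234 to 252911382, 0.32), chromosome 3 (160799981 to 160802433, 0.39) and the X chromosome (68713123 to 68785052, 0.43). The median difference of all other tested genes was 2.53.

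These genes had log2 fold changes in PAEC siNRF2 from -1.82 to -0.999. In PASMC they ranged from -0.64 to 0.51, where the gene on chromosome 1 was higher with siNRF2, at 559 ± 38.3 CPM against 392 ± 26.5 CPM in siControl. Cxcl11 ranked 74 in likeness to Cxcl10, with a difference of 0.76, and Cxcl9 ranked 3950, with 2.34. The measure takes in the difference between cell types and the PAEC libraries on which the interval was selected, so lower values in PAEC siNRF2 are partly built into it, and it carries no p.

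**Figure D5:**
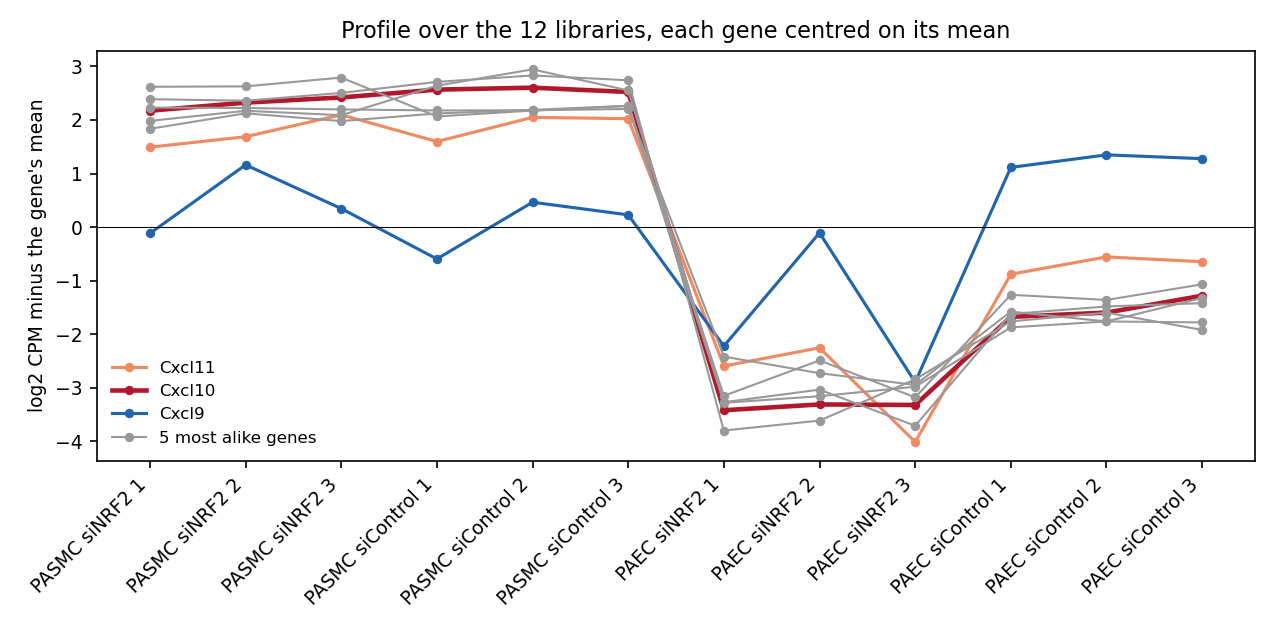
Log2 CPM minus the mean of each gene in the 12 libraries, for the 3 chemokine genes and the 5 genes most like Cxcl10 (grey). Cxcl10 and the grey lines drop together between PASMC and PAEC and are lower in PAEC siNRF2 than in PAEC siControl. Cxcl9 has its highest mean in PAEC siControl, where its values overlap those of PASMC siNRF2.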

How the data were processed

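Gene counts of 12 RNA-seq libraries were analysed, with 3 in each of 4 groups taken from the sample titles. Trizol extraction and a directional library kit were used, per the labels' protocols. The authors deposited whole-number counts per gene, not normalized, with exon positions and lengths per the file header. The tools listed, with no role or setting, are DESeq2 1.32.0, featureCounts 2.0.3 and HISAT2 2.0.5, per the submitters' processing notes. Column letters were read as E or S for the cell type, then C or S for the siRNA.

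None of the table's IDs (0 of 32883) matched a symbol by identifier, so the planned symbol lists and cell type markers were not run. Members and lists were chosen with earlier results of these data known. Text names each member, the nearest tested gene on either side and the 5 genes most like the most abundant member.

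Genes passing edgeR's filterByExpr (14584) were scaled by TMM and fitted with 1 coefficient per group (edgeR 4.0.16, R 4.3.3, estimateDisp, glmQLFit and glmQLFTest with robust estimation, 8 residual degrees of freedom), with Benjamini-Hochberg adjustment over all genes and a threshold of 0.05. All 3 members passed the filter. Standard errors came from the F statistics, 95% intervals from these and 8 degrees of freedom. The p-values drew on more degrees of freedom, because the fit shares its estimate of spread across genes. Intervals and p-values therefore rest on different degrees of freedom. Log2 CPM used a prior count of 2. The fit was tested on simulated data. Alternatives were other scalings, no filter, DESeq2 1.42.0, limma 3.58.1 (voom), fewer libraries, a replicate block and removal of the gene density trend (genes within 500 kb). Replicates were checked for duplicates by chi-square (8.95 to 41.0 per gene), and none was found.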

Additional observations from a re-analysis of the deposited data

Results flagged for a closer look

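The fitted effect of siNRF2 in PAEC minus that in PASMC was -1.59 on the log2 scale for Cxcl10, -2.08 for Cxcl11 and -3.44 for Cxcl9. The Cxcl9 value ran from -6.09 to -2.85 when single libraries were left out, with the extremes without PAEC siNRF2 replicates 2 and 3. These values drew attention as a difference in the siRNA effect between cell types. The PAEC part of each is the contrast by which the interval was picked, so no p is given and the values are a description.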

How the results depend on the processing

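The 2 members called between cell types under siControl and the 3 members at least 2-fold lower in PAEC siNRF2 stayed at 2 and 3 under each alternative run. The number called in PASMC was 0 to 1 when single libraries were left out and 1 under each other alternative. The Cxcl11 change in PASMC, which was not called, ran from -0.31 to 0.0041 when single libraries were left out, above 0 without PASMC siNRF2 replicate 1, and no other member changed sign under an alternative. Same-numbered libraries of a cell type did not deviate together (correlation of deviations across genes -0.058 to 0.013), so the numbers are not shown to pair them. With a replicate block 1, 2 and 3 members met the criteria in the PASMC, cell type and PAEC comparisons, and in PASMC 2285 genes rose and 2001 fell, against 2350 and 2129 without it. Counts limit Cxcl9, with sums of 11 to 87 per group, and Cxcl11 in PAEC siNRF2, with a sum of 53.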
